A study of Homo sapiens with 40 samples.

Results

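The short arm of chromosome 1 is the stretch from the tip of the chromosome to the centromere. It was divided into 25-kb bins that end at or before position 125000000 of hg38, which gave 5000 bins of the 121191 bins on chromosomes 1 to 22 and X. Each bin was scored by the percent of its bases inside H3K27me3 peaks, library by library. The arm was selected because fewer of its bins gained coverage than on the long arm after NSD2 was removed, so those counts are given as a description and carry no test of the arm. Across the boundary, the last bin inside and the first bin outside the rule were both at 0% in all 30 libraries.

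KMS-11 was the only line used. It is an established multiple myeloma line of human origin that carries the t(4;14) translocation. H3K27me3 was mapped by CUT&Tag, in which an antibody guides a transposase to the modification. In the knockout (KO) experiment, untreated wild-type parental cells were set beside untreated NSD2 KO clones 3 and 12. In the degron experiment, the wild-type line used for dTAG engineering and the NSD2-dTAG knock-in clones 8 and 11 were each sampled at 0, 7, 14 and 21 days of dTAGV-1, with day 0 untreated. The compound was given to the NSD2-dTAG cells at 100 nM, while no dose is stated for the wild-type line. Each of these 15 groups had 2 libraries, all groups carry the translocation, each numbered KO or dTAG derivative was taken as 1 clone, and the labels name no separate cultures for the 2 libraries of a group. NSD2 protein and RNA were not read out in the lists, so the genotype labels could not be checked with them.

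H3K27me3 is written by Polycomb repressive complex 2 and marks genes that are kept silent, often developmental regulators with CpG-rich promoters. NSD2 writes H3K36me2, a mark that hinders Polycomb repressive complex 2 on the same histone tail, and t(4;14) myeloma cells carry an excess of NSD2. The short arm of chromosome 1 is often lost in part in myeloma, with CDKN2C and TENT5C among the genes in the deleted stretches.

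Promoter sequences from RefSeq (GRCh38.p14) were matched to 911 of the 1075 protein-coding genes of at least 1 kb on the arm. A promoter was counted as inside a peak when its 300-base window, 250 bases before to 50 after the gene start, overlapped a peak by at least 1 bp. The 200 bases farthest upstream are printed for 5 genes, 5′ to 3′ on the gene's strand, with each CG in capitals. These genes are examples of 3 of the patterns met on the arm and do not represent all of its promoters. GLIS1 (chr1:53739215-53739414, minus strand) and HPCAL4 (chr1:39691484-39691683, minus strand) had a promoter inside a peak in every KO, KO parental, day 0 and day 21 library. BARHL2 (chr1:90717353-90717552, minus strand) had a promoter inside no peak in those libraries, although its gene body gained coverage. DBT (chr1:100249885-100250084, minus strand) and PIGK (chr1:77219481-77219680, minus strand) had promoters that were outside peaks in the KO parental and untreated clone libraries and inside peaks in all 4 KO and all 4 day 21 clone libraries.
GLIS1: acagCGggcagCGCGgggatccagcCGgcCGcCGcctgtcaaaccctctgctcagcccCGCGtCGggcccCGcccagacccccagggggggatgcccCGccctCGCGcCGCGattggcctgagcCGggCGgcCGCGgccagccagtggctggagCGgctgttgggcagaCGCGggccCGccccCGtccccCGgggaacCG
HPCAL4: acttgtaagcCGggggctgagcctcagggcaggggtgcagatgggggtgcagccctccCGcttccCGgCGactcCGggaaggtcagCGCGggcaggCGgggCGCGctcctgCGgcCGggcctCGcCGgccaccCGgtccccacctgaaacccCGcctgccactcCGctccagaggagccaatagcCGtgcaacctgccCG
BARHL2: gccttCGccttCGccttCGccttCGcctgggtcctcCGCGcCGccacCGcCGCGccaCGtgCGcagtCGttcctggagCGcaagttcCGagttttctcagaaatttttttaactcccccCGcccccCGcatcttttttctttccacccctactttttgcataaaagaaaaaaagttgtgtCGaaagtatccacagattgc
DBT: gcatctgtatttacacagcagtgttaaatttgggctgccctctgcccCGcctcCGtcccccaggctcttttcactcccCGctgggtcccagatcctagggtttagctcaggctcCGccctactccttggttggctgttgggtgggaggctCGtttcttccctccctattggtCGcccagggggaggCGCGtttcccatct
PIGK: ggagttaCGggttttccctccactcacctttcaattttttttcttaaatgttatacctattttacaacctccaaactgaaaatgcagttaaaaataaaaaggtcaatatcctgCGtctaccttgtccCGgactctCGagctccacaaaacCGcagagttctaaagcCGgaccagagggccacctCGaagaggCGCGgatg
The windows held 44 CG in GLIS1, 25 in HPCAL4, 23 in BARHL2, 18 in PIGK and 14 in DBT. A CG reads the same on both strands, and 98.1% of the arm's promoter windows and 98.4% of all 15411 windows held at least 1. The median window of the arm held 23 CG, beside 22 over all windows.

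Mean coverage of the whole arm was higher where NSD2 was removed, by amounts close to the spread between replicate libraries. In the KO parental line, 5.67% and 3.60% of the arm lay inside peaks. KO clone 3 had 7.19% and 5.95%, and KO clone 12 had 5.87% and 4.83%. The groups overlapped, because the higher parental library lay above the lower library of clone 12, and the KO mean was higher by 1.32 percentage points. NSD2-dTAG clone 8 went from 4.95% and 2.53% at day 0 to 7.21% and 5.41% at day 21, and clone 11 from 3.36% and 3.24% to 6.41% and 4.11%. The day 21 mean was higher by 2.26 points, with one day 21 library of clone 11 below the higher day 0 library of clone 8. Both differences turned negative when the called length of each library was set equal. They were −2.05 and −1.94 points after scaling by called length and −0.346 and −0.590 points in lists shortened to equal length. Mean called length was 1.94 times its reference in KO and 2.37 times at day 21, beside 1.29 and 1.64 times for arm coverage. The arm was chosen for few gains, so the turn is a description, and the part of that choice in it was not tested. Dividing by the caller's background pileup, which stands for depth, left 0.195 in KO and −0.0944 at day 21. The part of depth in the 2 differences was not tested beyond this. The pileup averaged 2.49 fragments per position in the KO clones and 2.04 in their parental libraries.

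A ratio of the 2 arms within a library is not changed by scaling that library. In the 14 libraries of cells with NSD2 (both wild-type lines at all days and the untreated dTAG clones), the short arm was 1.50 to 1.95 times as densely covered as the long arm, with a median of 1.68. In the 16 libraries of KO or dTAGV-1-treated NSD2-dTAG cells, the ratio was 0.825 to 1.03, with a median of 0.931. The ranges did not overlap, and they did not overlap in lists shortened to equal length (1.21 to 1.90 against 0.632 to 0.974) or with peaks joined over gaps of up to 3 kb (1.65 to 2.24 against 0.817 to 1.08). With peaks of −log10 q of at least 5 alone they did, at 0.715 to 1.65 against 0.570 to 0.872. The arm held 7.88% to 8.85% of all called bases in the first set of libraries and 5.35% to 6.49% in the second. Wild-type cells given dTAGV-1 for 7 to 21 days stayed at ratios of 1.50 to 1.73, with background pileups of 1.24 to 3.26. The ratio rests on the choice of the arm and is a description.

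**Figure D1:**
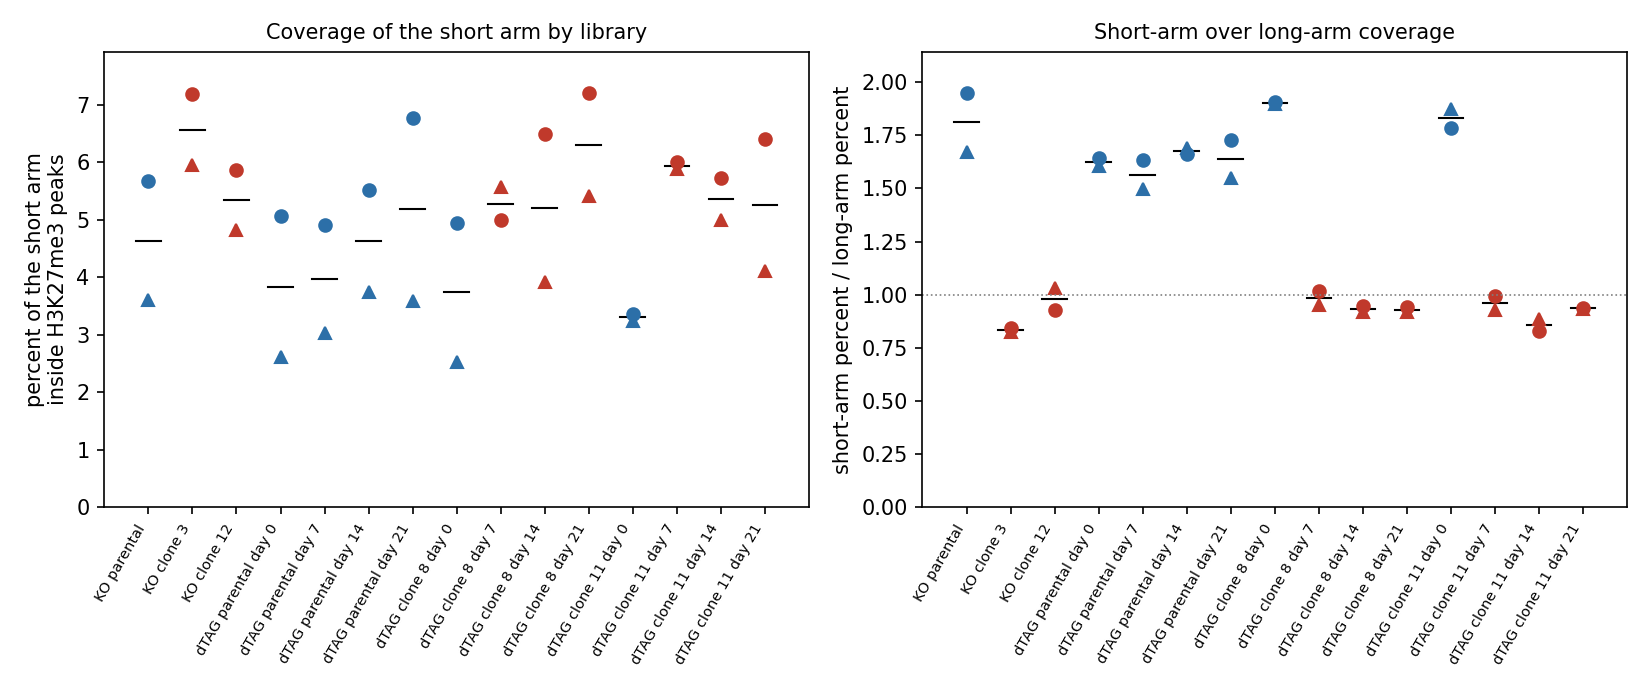
Percent of the short arm of chromosome 1 inside H3K27me3 peaks (left) and the ratio of short-arm to long-arm percent covered (right) in each library, by group. Circles are replicate 1, triangles replicate 2, black lines the group means, blue cells with NSD2 and red KO cells or treated NSD2-dTAG cells; the red libraries lie between 0.825 and 1.03 on the right and the blue ones between 1.50 and 1.95.

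In 3 further comparisons the arm had not been chosen on the contrast itself, and none passed an exact two-sided permutation test, with p adjusted over the 3. The clone libraries of day 0 and day 21 also enter the contrast that may have chosen the arm. The wild-type line had 5.07% and 2.62% at day 0 and 6.78% and 3.59% at day 21, a difference of 1.34 points (exact p = 0.667, adjusted 0.857, with 0.333 the smallest p that 2 against 2 libraries allow). Treated clones had a mean of 5.61% ± 0.452 (SD, n = 4) at day 7 and 5.79% ± 1.33 (SD, n = 4) at day 21 (difference 0.173 points, exact permutation p = 0.857). Untreated clones, at 3.52% ± 1.02 (SD, n = 4), and the untreated wild-type line differed by −0.319 points (exact permutation p = 0.800, smallest possible 0.0667). Each n of 4 is 2 libraries of each of 2 clones, and the test shuffled libraries without regard to clone or replicate number. Replicate 1 had the longer called length in 13 of 15 groups. Within replicate numbers 1 and 2, the differences were 0.856 and 1.79 points for KO, 2.65 and 1.88 for day 21 against day 0, and 1.71 and 0.971 for wild-type cells at day 21. They were 1.31 and −0.965 for day 21 against day 7 and −0.910 and 0.271 for untreated clones against wild type, so the last 2 comparisons changed sign between replicate numbers.

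Coverage was far from even along the arm, and 4 zones drawn after the data had been seen describe it. The distal 40 Mb are gene-rich, with 13.9 protein-coding genes per Mb, and held 81.0% to 85.0% of the arm's covered bases in the 14 libraries with NSD2. In the 16 libraries without it, that share was 62.4% to 73.6%, and the ranges did not overlap. The zone from 40 to 65 Mb rose in share from 8.00% to 10.9% to 14.1% to 18.8%. The gene-poor zone from 65 to 105 Mb, with 4.25 genes per Mb, went from 2.25% to 3.03% to 4.95% to 8.89%. The zone from 105 Mb to the centromere went from 4.16% to 5.22% to 7.18% to 9.98%. Among the libraries without NSD2, KO clone 12, at 72.9% and 73.6% in the distal zone, stood nearest to the libraries with NSD2.

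Percent covered in the distal zone itself overlapped between the groups, at 14.8% and 9.28% in the KO parental libraries and 11.1% to 14.5% in the KO clones. From 40 to 65 Mb, the KO parental libraries had 2.69% and 1.77% and the KO clones 3.41% to 6.50%, without overlap. From 65 to 105 Mb, the values were 0.399% and 0.278% against 0.770% to 1.73%, again without overlap. Treated dTAG clones spanned 0.798% to 1.74% in that gene-poor zone, and wild-type cells at 7 to 21 days of dTAGV-1 spanned 0.287% to 0.526%.

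The profile in 5-Mb segments showed a step at 40 Mb in cells with NSD2. In the KO parental line, the segment from 35 to 40 Mb was 8.85% covered on average and the one from 40 to 45 Mb 3.23%, although the second had more genes, 15.2 against 12.6 per Mb. In the KO clones, the same neighbours were at 9.79% and 7.17%. In NSD2-dTAG clones they went from 5.88% and 2.25% at day 0 to 9.10% and 7.98% at day 21. Of the 200 bins from 40 to 45 Mb, 100 gained coverage by day 21 and 44 in the KO clones. The outermost 5 Mb, with 19.2 genes per Mb and the highest coverage of the arm (18.7% on average in the KO parental line and 19.1% in the KO clones), had 1 gained bin at day 21 and 0 in the KO clones. Next to the centromere, in the last 5 Mb, 177 of 200 bins held no peak in any library.

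**Figure D2:**
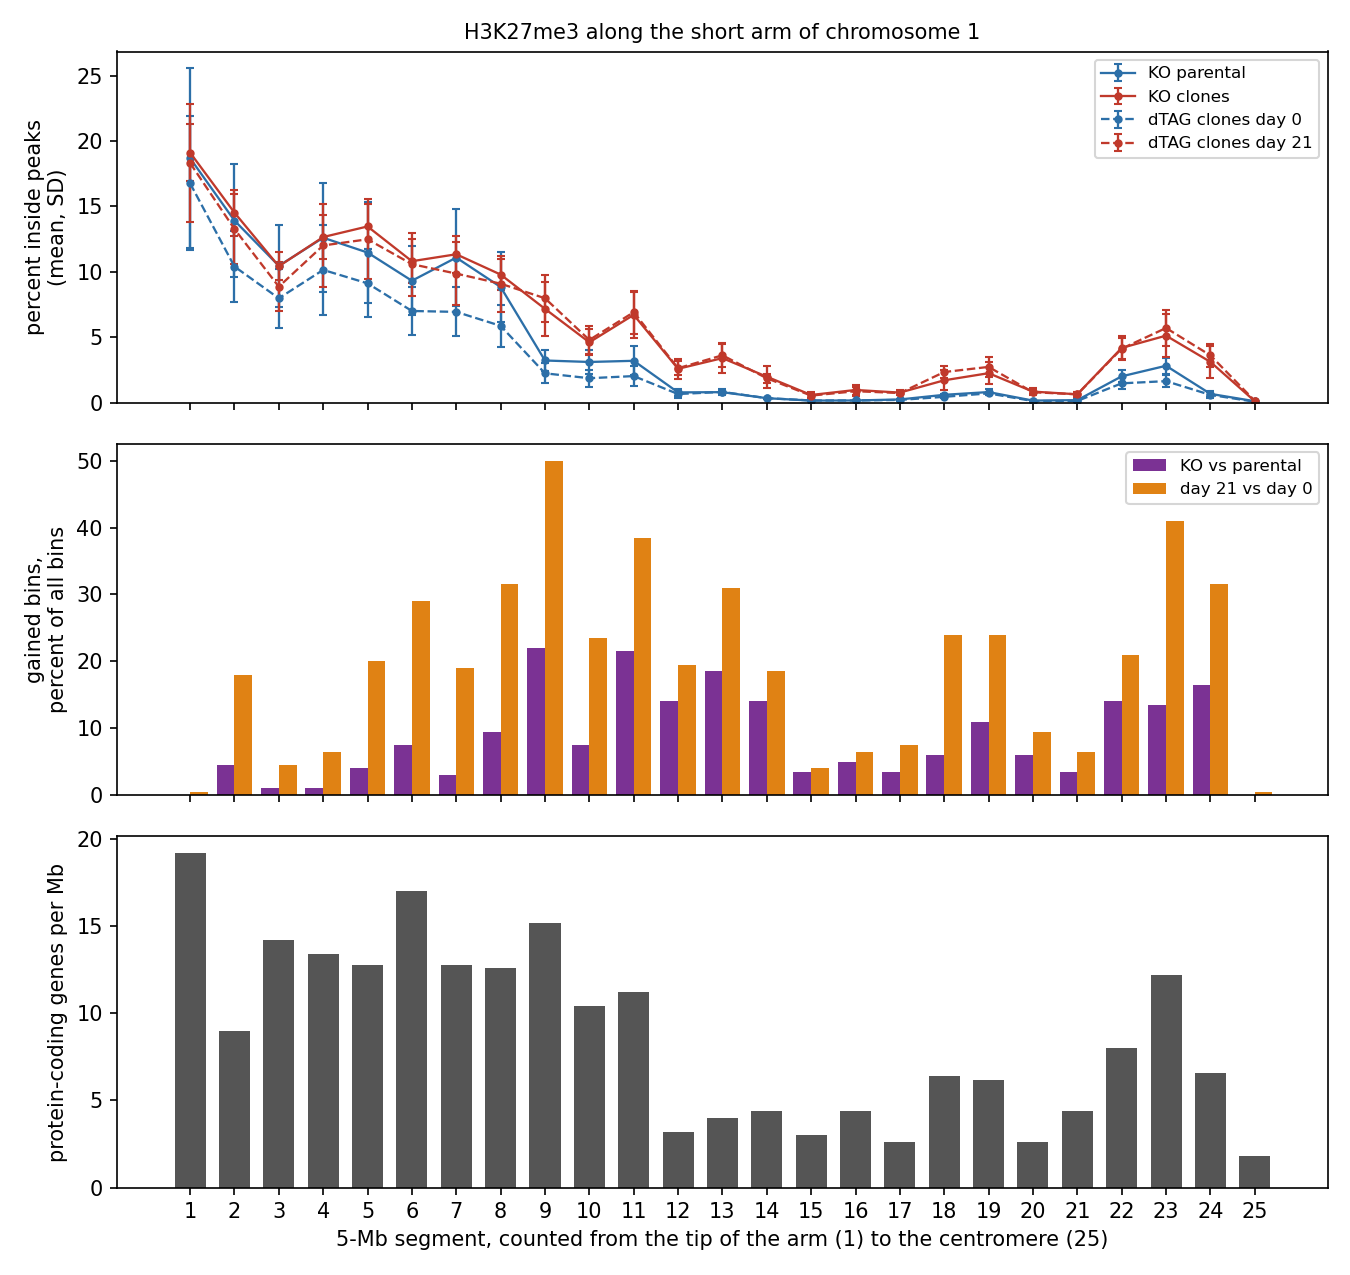
H3K27me3 along the arm in 5-Mb segments counted from the tip: mean percent inside peaks with SD over 2 KO parental and 4 KO, day 0 or day 21 libraries (top), gained bins as percent of all 200 bins of a segment (middle) and protein-coding genes per Mb (bottom). Coverage drops after segment 8 in cells with NSD2, from 8.85% to 3.23% in the KO parental line, and segment 9 has the most gained bins, 44 in KO and 100 at day 21.

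Of the 5000 bins, 1494 (29.9%) were outside peaks in all 30 libraries, 1020 more had a mean under 1% and were not tested, and 2486 were tested. In the KO clones, 421 arm bins gained coverage and 34 lost it (limma, adjusted p under 0.05 over all bins of the genome). Over all tested bins of the genome, 37.3% gained and 0.522% lost. The median difference on the arm was 2.17 points and over all bins 4.15 points. The arm was chosen on such a count, so nothing is read from its distance to the background. After scaling by called length, 236 arm bins gained and 554 lost, and the medians were −2.09 points on the arm and 1.54 points over all bins. Calls over the genome after scaling were not counted, here or for the scaled counts below. The scaled counts therefore cannot be read as particular to the arm. Without the first KO parental library 163 bins gained, and without the second 104.

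In treated NSD2-dTAG clones, 7 days of dTAGV-1 raised 725 arm bins and lowered 5 (genome 39.5% and 0.159%). After 14 days it was 800 raised and 10 lowered (47.1% and 0.387%), and after 21 days 972 raised and 9 lowered (51.6% and 0.367%). These 3 counts share the day 0 libraries. The direct comparison of day 21 with day 7 called 27 gained and 5 lost bins (genome 1.83% and 0.379%). The median difference at day 21 was 3.82 points on the arm and 4.57 over all bins. Scaling by called length gave 485 higher bins beside 685 lower ones after 7 days, 575 beside 761 after 14 days, and 584 beside 742 after 21 days, with a final median of −0.500 points on the arm and 1.81 over all bins.

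Wild-type cells at day 21 had 0 arm bins called in either direction by limma, as over the whole genome (0% and 0%). At an unadjusted p under 0.05 there were 76 of 2486, all higher at day 21. Over the genome there were 935 of 49812, of which 910 were higher. The change of the clones minus the change of the wild-type line called 41 arm bins higher and 2 lower (genome 3.39% and 0.0582%). Scaling by called length made this 86 and 219, leaving out any 1 of the 4 wild-type day 0 and day 21 libraries took the 41 to 0, and leaving out any 1 of the 4 day 0 clone libraries took it to 1 or 2.

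The KO clones differed from each other. Clone 3 had 595 gained and 35 lost arm bins against the parental line (genome 43.9% and 0.514%), and clone 12 had 52 and 8 (8.33% and 0.149%). Tested directly, clone 3 was higher than clone 12 in 126 bins and lower in 7 (8.28% and 0.147%). The dTAG clones had 608 gained and 2 lost (clone 8, genome 35.7% and 0.155%) and 291 and 1 (clone 11, 17.9% and 0.0542%). The difference between their changes was called in 0 arm bins by limma. At an unadjusted p under 0.05 there were 61 of 2486, beside 1597 of 49812 over the genome. Untreated clones and the untreated wild-type line differed in 0 arm bins by limma. Here 57 of 2486 had an unadjusted p under 0.05, beside 710 of 49812 over the genome.

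KO and dTAG experiments share no library, but all libraries were fitted together. Both lists used the same estimate of spread per bin and the same filter on mean coverage, so they are not independent. Most KO gains on the arm were also day 21 gains. Of the 421 bins gained in the KO clones, 349 were gained at day 21 as well, which is 82.9% of the first list and 35.9% of the second. Of all tested bins, 39.1% on the arm and 51.6% over the genome gained at day 21. The overlap over the genome was not counted. Of the losses, 1 bin, overlapping the neuronal adaptor gene DAB1 (57400001 to 57425000), was in both the 34 and the 9. One KO-gained bin, in MAN1C1 (25625001 to 25650000), was lost at day 21, a call that ended without any of 7 of the 8 libraries. Of the 34 KO-lost bins, 2 were gained at day 21.

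Gains were spread unevenly over the zones. The distal 40 Mb had 1337 tested bins, of which 61 (4.56%) gained in KO and 258 (19.3%) at day 21. From 40 to 65 Mb, 167 of 524 tested bins (31.9%) gained in KO and 325 (62.0%) at day 21. From 65 to 105 Mb, where 47.7% of bins held no peak in any library, 105 of 334 tested bins (31.4%) and 201 (60.2%) gained. Near the centromere, it was 88 of 291 (30.2%) and 188 (64.6%). Losses lay the other way, with 28 of the 34 KO losses and 7 of the 9 day 21 losses in the distal 40 Mb. A bin of a sparse zone passes the 1% filter mainly through libraries in which it is high, so these shares describe the tested bins and not the zones.

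Bins were also classed by their percent covered in the NSD2-expressing libraries of the other experiment, and gains were counted over all bins of a class. An untested bin adds to the total of its class and cannot be called: under 1%, 683 of 1693 short-arm bins and 1279 of 2325 long-arm bins were tested for KO. Of short-arm bins under 1% that held a peak in some library, 15.2% gained in KO, beside 41.3% on the long arm and 24.8% on the other chromosomes. Between 1% and 5% it was 17.9%, beside 48.1% and 26.6%, and between 5% and 20% it was 4.03%, beside 21.8% and 7.18%. None of the 249 short-arm bins above 20% gained in KO. At day 21, the short arm and the other chromosomes were closer, at 28.4% and 28.6% for bins under 1%, 41.7% and 44.2% from 1% to 5%, 26.9% and 33.5% from 5% to 20%, and 5.68% and 8.38% above 20%. The long arm was higher in each class, at 40.5%, 59.5%, 60.3% and 47.9%. These shares come from the contrasts that may have chosen the arm and are descriptions.

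**Figure D3:**
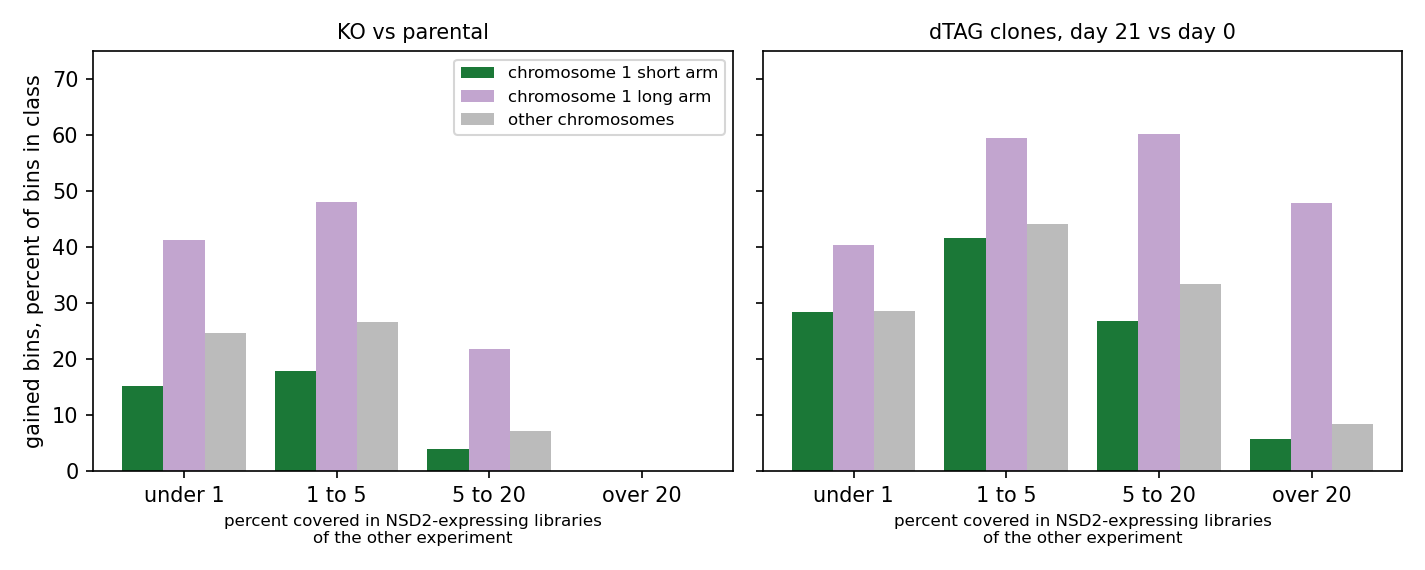
Share of bins that gained H3K27me3 coverage, as percent of all bins of a class, for the short arm, the long arm and the other chromosomes. Classes are the mean percent covered in NSD2-expressing libraries of the other experiment; in KO the short arm (15.2% under 1%) lies below the other chromosomes (24.8%), and at day 21 the values are 28.4% and 28.6%.

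By gene content the shares lay closer together. In KO, 7.49% of the arm's bins without a protein-coding gene gained, 10.6% of bins partly inside a gene and 7.88% of bins wholly inside one. At day 21 the shares were 18.1%, 29.2% and 13.9%. On the other chromosomes they were 14.8%, 17.4% and 13.9% in KO and 18.7%, 32.5% and 16.7% at day 21. The arm's tested bins were 799 of 1989, 992 of 1259 and 695 of 1752, in the same order. Of these, 149, 134 and 138 gained in KO and 361, 368 and 243 at day 21. An untested bin counts in its class and cannot be called, so the shares do not rank the classes among tested bins.

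The largest KO gains clustered at 2 genes. CSF1 (109910506 to 109930992), which encodes the growth factor of macrophages, took 2 of the 10 largest gains, and the intergenic bin beside it another. The bin from 109925001 to 109950000 was at 4.08% and 0% in the KO parental line, 24.5% and 27.0% in clone 3 and 32.5% and 19.9% in clone 12 (difference 23.9 points, SE 4.16, adjusted p = 0.000385). All 4 KO libraries lay above both parental ones. GLIS1 (53506239 to 53739164), a zinc-finger transcription factor gene, took 3 more. Its bin from 53700001 to 53725000 was at 0% in both parental libraries, at 27.9% and 22.6% in clone 3 and at 15.5% and 7.08% in clone 12 (difference 18.3 points, SE 3.27, adjusted p = 0.000473). In the dTAG clones the same bin went from 1.16%, 0%, 0% and 0% to 23.8%, 14.5%, 22.3% and 9.23% (difference 17.2 points, SE 2.67, adjusted p = 7.87e-05), and it was at 0% in wild-type cells at day 0 and day 21. The groups did not overlap in either experiment. FGGY, a carbohydrate kinase gene, held 2 others, LRP8, a reelin receptor gene, held 1, and the last was intergenic at 41300001 to 41325000.

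Several of the largest KO losses lay in bins that the untreated dTAG cells hardly covered. Of the 10, 7 overlapped no protein-coding gene, and 6 lay at 34.3 to 34.6 and 38.4 to 38.7 Mb. The bin from 34550001 to 34575000 was at 14.9% and 10.7% in the KO parental line, at 0% in both libraries of clone 3 and at 3.30% and 1.51% in clone 12 (difference −11.6 points, SE 1.58, adjusted p = 5.82e-05). In the untreated dTAG clones it was at 0% in all 4 libraries, and in the untreated wild-type line of that experiment it was at 0% in both. Of the 2 untreated wild-type lines, 1 thus held peaks there, although 1 wild-type library at day 21 reached 9.06%. The bin from 38450001 to 38475000 showed the same layout, with 11.8% and 12.4% in the KO parental line, 1.04% to 7.42% in the KO clones and 0% in the 6 untreated dTAG-experiment libraries.

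At day 21 the largest gain was in ELAPOR1 (bin 109150001 to 109175000), which encodes a membrane protein of endosomes and lysosomes. It went from 2.31%, 0%, 1.14% and 0.656% to 29.1%, 29.5%, 31.5% and 14.5% (difference 25.2 points, SE 4.19, adjusted p = 0.000136), and from 3.89% and 1.37% to 9.59% to 29.0% in KO (adjusted p = 0.0184). Treated and untreated libraries did not overlap. The bin of the lens transcription factor gene FOXE3 (47400001 to 47425000) gained 22.2 points (SE 3.85, adjusted p = 0.000191), while the FOXE3 gene body itself was at 0% in all day 0 and day 21 clone libraries. The bin of TAL1 (47200001 to 47225000), a blood stem cell transcription factor gene, gained 20.5 points (SE 6.87, adjusted p = 0.0176), and its untreated values of 1.51% to 23.3% overlapped its day 21 values of 22.4% to 42.1%. That call was lost without any of 4 of the 8 libraries.

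Of the 9 bins lost at day 21, the largest was intergenic, from 30425001 to 30450000. It fell from 33.0%, 24.9%, 17.5% and 26.2% to 13.0%, 11.1%, 10.5% and 10.7% (difference −14.1 points, SE 3.34, adjusted p = 0.00201), while the wild-type line went from 17.5% and 13.3% to 32.1% and 22.4%. All 4 treated libraries lay below all 4 untreated ones, and the difference between the changes passed the test (adjusted p = 0.0284).

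The 10 bins with the highest coverage in the 8 untreated libraries with NSD2 (KO parental, wild-type day 0 and dTAG clones at day 0) all lay in the distal 40 Mb. The highest, at SAMD11 (900001 to 925000), a nuclear protein gene of the retina, averaged 54.4% there. It had 64.4% and 56.9% in the KO parental line, 47.1% to 56.3% in the KO clones, 45.3% to 60.1% in untreated dTAG clones and 44.1% to 60.5% at day 21. None of the 10 was called in either experiment, and the bin of CASZ1, a zinc-finger transcription factor gene, was among them. RAP1GAP (21650001 to 21675000), a GTPase activator gene, came closest, with 49.6% and 32.0% in the KO parental line and 22.2% to 30.8% in the KO clones (difference −15.6 points, SE 6.54, adjusted p = 0.0650). Its KO values lay below both parental values.

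Scored over whole genes, 788 of the arm's 1075 genes entered the test, and 63 held no peak in any library. In KO, 78 gained and 8 lost coverage (genome 18.0% and 0.744%), and at day 21, 172 gained and 2 lost (26.5% and 0.494%). Of the 78 genes, 67 gained at day 21 too, which is 85.9% of the KO list and 39.0% of the day 21 list. Of all tested arm genes, 21.8% gained at day 21, and the 2 lists share the estimate of spread and the filter. Scaled by called length, the counts were 46 gained and 150 lost in KO and 86 and 282 at day 21. After 7 days 126 genes had gained and 3 lost (21.1% and 0.243%), and after 14 days 130 and 6 (22.0% and 0.630%). Wild-type cells at day 21 had 0 arm genes called by limma (genome 0.0143% gained and 0% lost). At an unadjusted p under 0.05 there were 38 of 788, beside 536 of 13975 over the genome. KO clone 3 had 111 gained and 10 lost genes (21.9% and 0.673%), and KO clone 12 had 13 and 1 (4.47% and 0.193%).

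Among the 10 largest KO gains, ZMYND12 (42430329 to 42456022), which encodes a zinc-finger protein, went from 0% and 0% to 18.8% and 17.6% in clone 3 and 7.43% and 8.60% in clone 12 (difference 13.1 points, SE 2.11, adjusted p = 0.000349). It rose from 0%, 0%, 0.160% and 0% to 13.9%, 14.7%, 18.6% and 8.23% at day 21 (difference 13.8 points, SE 1.73, adjusted p = 3.37e-05). The wild-type line stayed between 0% and 1.33% at days 0 and 21, and the groups of cells with and without NSD2 did not overlap. BARHL2 (90711539 to 90717302), a homeobox gene of neurons and retina, was at 0% in all libraries with NSD2. It had 9.07% and 15.9% in clone 3, 18.3% and 9.58% in clone 12, and 9.66% to 14.3% in the 4 day 21 clone libraries (KO difference 13.2 points, SE 3.58, adjusted p = 0.0141). Clones 8 and 11 had 0%, 0%, 0% and 14.5% at day 7, which was not called (limma, adjusted p = 0.443). At day 14 they had 14.2%, 0%, 19.9% and 16.6%. The KO call was lost without either KO parental library or the first library of clone 12. Genes at or near 0% with NSD2, here and in the lists below, pass the 1% filter mainly through libraries in which they are high. Their calls could hardly be losses, so the p-values describe the tested genes only.

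GLIS1 as a whole rose from 7.50% and 1.48% to 26.1%, 21.0%, 20.7% and 13.5% in KO (15.8 points, SE 3.20, adjusted p = 0.00194). CSF1 rose from 18.1% and 16.9% to 40.7%, 38.9%, 31.2% and 27.5% (17.0 points, SE 4.88, adjusted p = 0.0195), and scaling by called length took this to −0.0929 points. Both were without overlap, but the KO call of CSF1 was lost without any of 3 libraries and that of GLIS1 without the second KO parental library. The call of GPX7 in KO was lost without any of 5 of the 6 libraries. The other 6 of the 10 gained 12.3 to 21.1 points: GPX7, a peroxidase of the endoplasmic reticulum, LURAP1, an adaptor protein, PIGV, a mannosyltransferase of GPI anchor synthesis, GSTM4, a glutathione transferase, SHISAL2A, a membrane protein, and CYP2J2, an epoxygenase of arachidonic acid. All 10 had called gains at day 21 as well, but 8 of them were called on spread shared by all 15 groups: with the KO groups alone GLIS1 had adjusted p = 0.0640 and CSF1 0.0586, while ZMYND12 (0.0462) and CYP2J2 (0.0487) stayed under the threshold.

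**Figure D4:**
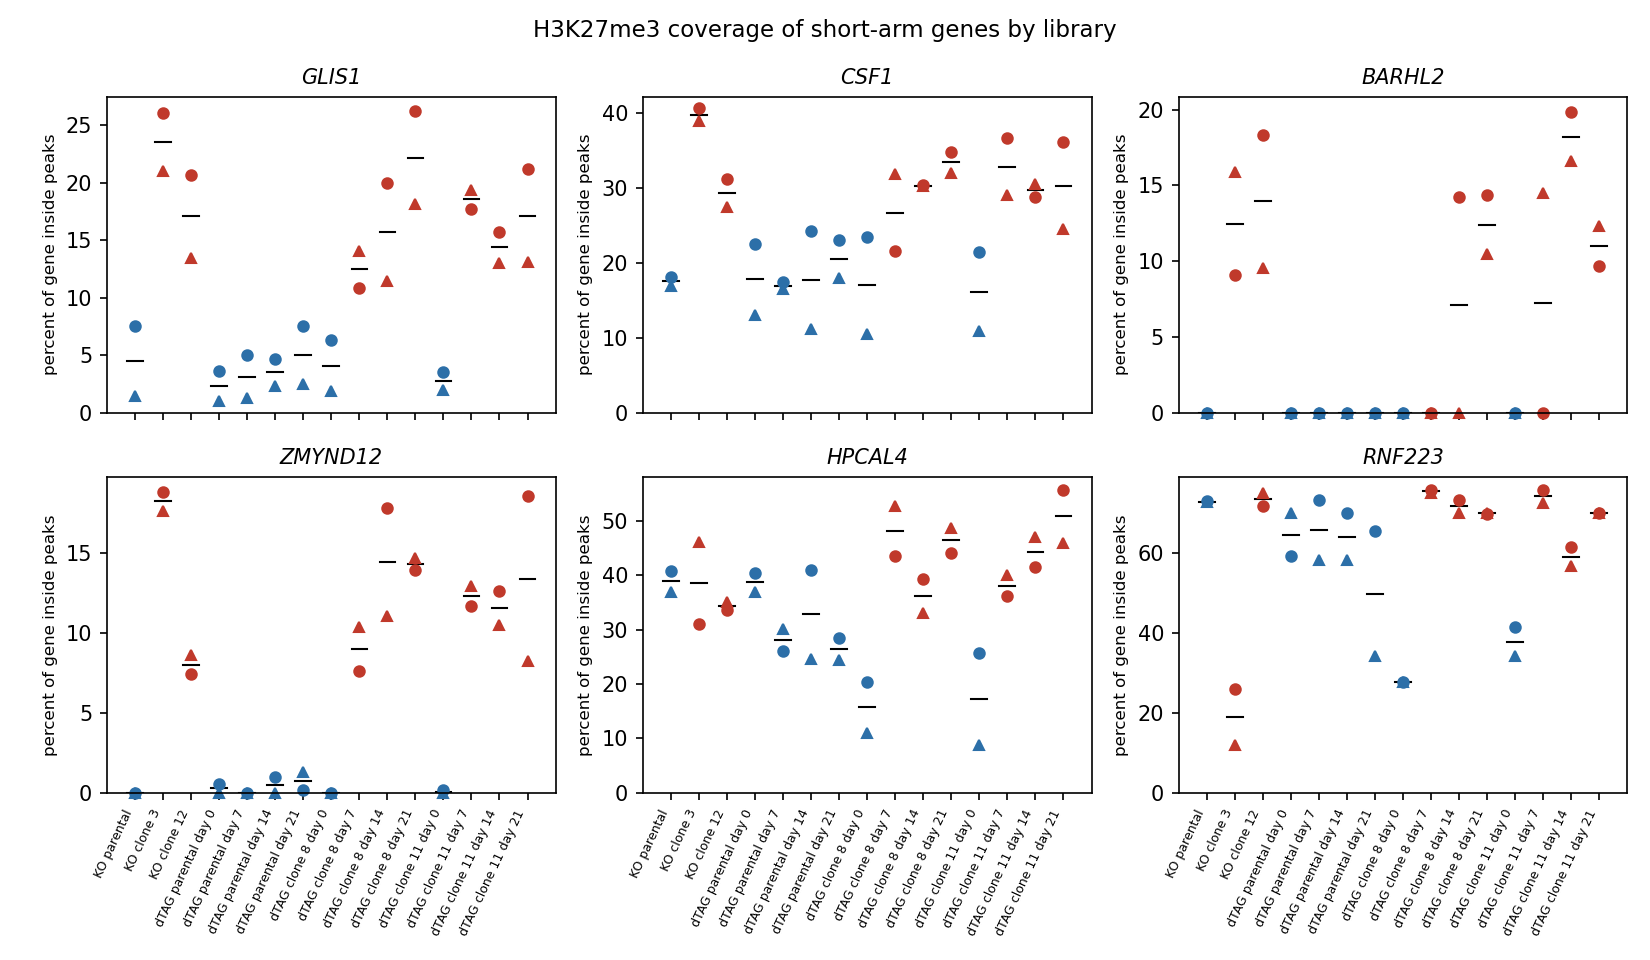
Percent of the gene body inside H3K27me3 peaks in each library for GLIS1, CSF1, BARHL2, ZMYND12, HPCAL4 and RNF223, by group. Circles are replicate 1, triangles replicate 2, black lines group means, blue cells with NSD2 and red KO or treated NSD2-dTAG cells. BARHL2 is at 0% in every blue library and also in some red libraries of days 7 and 14. RNF223 is low (26.0% and 11.9%) in KO clone 3 but not in KO clone 12 (71.7% and 75.2%).

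Of the 8 KO losses, the largest came from clone 3. RNF223 (1070967 to 1074306), a RING-finger gene near the tip, had 73.1% and 72.7% in the KO parental line, 26.0% and 11.9% in clone 3, and 71.7% and 75.2% in clone 12 (difference −26.7 points, SE 7.11, adjusted p = 0.0126). Only clone 3 was low, and the KO call was lost without either KO parental library. At day 21 it went the other way, from 27.8%, 27.8%, 41.5% and 34.3% to 69.9%, 70.0%, 70.2% and 70.0% (37.2 points, SE 5.80, adjusted p = 0.000176), and scaling by called length took this to −6.38 points. TMEM200B, a membrane protein gene, was lost in both experiments, by 15.8 points in KO (SE 5.34, adjusted p = 0.0478) and by 12.8 at day 21 (SE 4.36, adjusted p = 0.0366). One KO library of clone 12 stayed at 16.0%, and the calls ended when any of 5 single libraries was left out in KO or any of 5 at day 21. SDHB, a subunit gene of succinate dehydrogenase, fell from 3.79% and 2.71% to 0.507% to 1.16% (−2.57 points, SE 0.624, adjusted p = 0.00697). The other losses were TAFA3, TMEM61, PRAMEF4, GNL2 and MACO1, by 2.20 to 16.3 points. TMEM61, like RNF223, was called in the other direction at day 21, where it gained 8.23 points (SE 2.82, adjusted p = 0.0381).

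The largest day 21 gain, of SRARP (39.2 points), lost its call without any of 7 single libraries. At day 21 the largest gains that kept their call with any single library left out were MYBPHL, AMIGO1, HPCAL4, RNF223, CLDN19 and GPX7. HPCAL4 (39678648 to 39691433), which encodes a calcium sensor of neurons, went from 20.5%, 11.0%, 25.7% and 8.82% to 44.2%, 48.7%, 55.8% and 46.0% (32.2 points, SE 4.79, adjusted p = 0.000124). It had no KO gain, with 40.8% and 36.9% in the parental line and 31.0% to 46.1% in the KO clones (adjusted p = 0.879), and its wild-type values of 40.5% and 37.0% at day 0 lay above all untreated clones. Scaled by called length, its day 21 gain was 9.13 points with adjusted p = 0.388. CLDN19, a tight junction gene, went from 0%, 0%, 6.38% and 0% to 44.2%, 33.2%, 22.3% and 32.1% (31.4 points, SE 5.87, adjusted p = 0.000756). Treated and untreated libraries did not overlap for either gene.

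The change of the clones minus that of the wild-type line was called higher for 12 arm genes and lower for 1 (genome 1.93% and 0.0859%). RNF223 (52.0 points, SE 10.0, adjusted p = 0.0183) and HPCAL4 (44.4 points, SE 8.30, adjusted p = 0.0172) had the largest values. In both, the wild-type line started above the untreated clones and its mean fell. RNF223 went from 59.2% and 70.0% to 65.4% and 34.3% in wild type, and HPCAL4 from 40.5% and 37.0% to 28.6% and 24.4%. ZMYND12, AKNAD1, KCNC4, a potassium channel gene, CD101, an immunoglobulin-superfamily gene, SCP2, a sterol carrier gene, MCOLN3, a lysosomal channel gene, CCDC30, VTCN1, a B7-family gene, SGIP1, an endocytosis gene, and an uncharacterised gene made up the rest of the 12. IQCC was lower, by 21.0 points (adjusted p = 0.0446).

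Among 29 developmental transcription factor genes on the arm, 25 were tested, 4 gained in KO and 6 at day 21, and none was lost. These are 16.0% and 24.0% of the tested members, beside 18.0% and 26.5% of all tested genes, whose median differences were 1.46 and 2.05 points. Of the arm's own tested genes, 9.90% gained in KO and 21.8% at day 21. These arm shares apply to the lists below too, and the arm was chosen for few gains. HIVEP3, NFIA, LHX8 and BARHL2 gained in both, and RUNX3 and DMRTB1 at day 21. NFIA, a nuclear factor of glia and blood cells, went from 2.98% and 2.10% to 4.61% to 9.37% in KO (4.31 points, SE 1.16, adjusted p = 0.0138), without overlap. Several members were high throughout and not called: HES2 averaged 49.4% in the KO parental line and 57.5% in the KO clones, TP73 39.6% and 44.1%, and PRDM16 24.0% and 29.1%. The list's median difference was 4.31 points in KO and 3.64 at day 21.

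Of 20 developmental ligand and receptor genes, 18 were tested, 3 gained in KO (ROR1, a WNT5A receptor, CSF1 and BMP8B) and 6 at day 21. These are 16.7% and 33.3%, beside 18.0% and 26.5% of all tested genes. ROR1 went from 0.613% and 0.767% to 2.97% to 7.36% in KO (4.12 points, SE 1.03, adjusted p = 0.00841) and from 0.376% to 1.19% to 4.59% to 7.33% at day 21 (5.18 points, SE 0.839, adjusted p = 0.000231). The ranges did not overlap. The day 21 gains included WNT2B, EPHA10, CSF1 and TGFBR3. The list's median difference was 2.08 points in KO and 2.87 at day 21.

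Of 36 neuronal adhesion and synapse genes, 22 were tested, 4 gained in KO and 7 at day 21, or 18.2% and 31.8%, beside 18.0% and 26.5% of all tested genes. SYT6, a synaptotagmin, KCNC4, CACHD1 and SGIP1 gained in both. SGIP1 went from 0% and 0% to 1.91% to 4.06% in KO (3.14 points, SE 0.434, adjusted p = 0.000104). Long genes of the gene-poor zone stayed nearly empty in all cells, with NEGR1, an adhesion gene, at 0.0279% in the KO parental line and 0.0491% in the KO clones on average.

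Of 27 immune receptor and signalling genes, 22 were tested, 6 gained in KO and 10 at day 21, or 27.3% and 45.5%, beside 18.0% and 26.5% of all tested genes. The 6 were TNFRSF9, CD101, IL23R, JAK1, VTCN1 and IGSF3, all of which gained at day 21 too. IL23R, the receptor for interleukin 23, was at 0% in the KO parental and untreated clone libraries and at 0.762% to 4.87% in the KO clones and 2.37% to 7.04% at day 21 (KO adjusted p = 0.00808, day 21 adjusted p = 9.62e-05). VTCN1 was likewise at 0% without treatment and at 2.25% to 6.18% in KO and 2.31% to 10.7% at day 21. Starting from 0%, both genes could only be called as gains, and they enter the test mainly through libraries in which they are high.

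Of 11 genes from stretches deleted in myeloma, 4 were tested and none was called by limma, with 0 in KO and 3 at day 21 under an unadjusted p of 0.05. Over the genome, 3954 of 13975 tested genes in KO and 5072 at day 21 were under that value. CDKN2C, an inhibitor of CDK4 and CDK6, was at 0% in the KO parental and KO libraries and averaged 0.686% at day 21, where 1 of 4 libraries held a peak, and TENT5C, a poly(A) polymerase gene, averaged 0.0716% and 0.692% in the KO parental line and KO clones. Of 28 housekeeping genes, 21 were tested, 1 gained in KO (GNAI3, a G-protein subunit, from 0.706% and 0% to 4.03% to 9.08%) and 1 was lost (SDHB). At day 21 none was called by limma, and 0 had an unadjusted p under 0.05.

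Promoter windows inside a peak in all 8 untreated libraries with NSD2 were 379 of the arm's 911 (41.6%), beside 36.7% of all windows. They held a median of 29 CG, and the 138 windows (15.1%, beside 18.1%) inside no peak in any of the 30 libraries a median of 5. Of 25 housekeeping genes with a window, 19 were in the first class, although the median housekeeping gene body was 1.30% covered. An overlap of 1 bp sufficed, and the IgG libraries of the series were not analysed. Between libraries, 46.1% to 70.5% of all windows were inside a peak. The class alone therefore does not show that a promoter carries H3K27me3. Promoters inside a peak in all KO and neither KO parental library numbered 20 (2.20%, the same share as over all windows, 2.20%), and those inside a peak in all 4 day 21 and no day 0 clone library numbered 15 (1.65%, beside 1.38%). ANKRD13C, BTBD8, DBT, PIGK and RNPC3 met both conditions (0.549%, beside 0.467%). DBT encodes a subunit of the branched-chain keto acid dehydrogenase and PIGK one of the GPI transamidase.

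Genome-wide, the KMS-11 label was checked against 8 plasma cell genes, of which 2 were over 5% covered with a median of 3.34%, and 19 genes of other lineages, of which 10 were over 5% with a median of 6.37%. SLAMF7, an abundant plasma cell surface protein, was covered at 25.5%, and the B cell gene MS4A1 and the myeloid gene CD14 at 0%, as means over the 8 untreated libraries with NSD2. In single libraries of all 30, CD14 reached 85.8% and MS4A1 17.3%. The 2 lists overlapped in level, and their part in the results was not tested. Called length ran from 36.1 to 168 Mb per library.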

How the data were processed

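The 30 H3K27me3 libraries, in 15 groups of 2, were taken as 1 deposited broadPeak list each, and 10 libraries of other targets were not analysed here. Per the submitters' processing notes, reads were aligned to hg38 and MACS3 3.0.2 was among the tools; the notes also list fastp 0.24.0, Bowtie2, SAMtools, Picard, deepTools 3.5.1 and ChIPseeker 1.42.1, with no roles. For the caller's control and options, the step is not given in the sources used here. The deposited lists hold, per peak, the authors' score (10 times −log10 q as a whole number), the fold enrichment over the caller's background, and −log10 p and −log10 q. Peaks carry no read counts, so depth was approximated by the background pileup solved from fold and p of the shortest 2% of peaks, assuming a Poisson background, which gave 0.922 to 3.26.

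Peaks of a library were merged, and the percent of each 25-kb bin and of each protein-coding gene of at least 1 kb inside them was computed here, with RefSeq gene positions on GRCh38.p14. Bins and genes with a mean of 1% to 99% over all libraries (49812 bins, 13975 genes) were tested with limma 3.58.1 in R 4.3.3 (15 group means, 15 residual degrees of freedom, moderated variance with trend). P-values were adjusted by Benjamini-Hochberg over the genome, and called means an adjusted p under 0.05. Values are percentage points with SE. For arm totals, permutation tests were exact and two-sided (SciPy 1.17.1, Python 3.11.15). Calls were tested on simulated data. The named bins and genes are the 10 largest gains and losses called in KO and at day 21, the 10 highest bins with NSD2 and the members of gene lists. The members and lists were chosen with earlier results of these data known, and the zones after the data had been seen. Where labels name no separate cultures, p-values measure only the spread between libraries. Alternatives covered scaling by called length, pileup, equal list length, −log10 q of at least 5, joined gaps of 3 kb, no filter, only the groups compared, a replicate block and leaving out each library. The replicate numbers were checked as pairs: deviations from group means correlated at 0.0110 to 0.698 (median 0.187) over 105 pairs of groups, all positive but only 72 over 0.1, so the numbers were not treated as pairing samples, and arm differences are also given within replicate numbers. One gene-list member is counted but not reported by name here.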

Additional observations from a re-analysis of the deposited data

Results flagged for a closer look

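Among 86 groups of 4 libraries, scored for named genes or for coverage of the whole arm, 13 had 1 library far from the other 3 by Dixon's criterion. All 13 were groups of named genes. Chance flags about 1 in 20 groups if values are normally distributed, which these are not. For ZMYND12 and CLDN19 at day 0, TMEM200B at day 21 and PRAMEF4 in both of its groups, the other 3 libraries were at 0%. Any value above 0% is flagged there, so the 13 cannot be set against that rate. GSTM4 stood at 20.1% in the second day 21 library of dTAG clone 8, ZMYND12 at 0.160% in the first day 0 library of clone 11, TAFA3 at 6.51% there, and CLDN19 at 6.38% there. TMEM200B stood at 16.0% in the first library of KO clone 12 and at 7.04% in the first day 21 library of dTAG clone 8. PRAMEF4, whose near-identical copies make read placement uncertain, stood at 5.45% in the second library of KO clone 12 and at 5.09% in the second day 21 library of dTAG clone 11. GNL2 stood at 1.26% and 1.34% in the second libraries of clone 11 at day 0 and day 21. SDHB stood at 1.16% in the first library of KO clone 3 and at 1.20% in the first day 21 library of dTAG clone 8, and LDLRAD1 at 52.0% in the first library of KO clone 3.

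In 2 cases the difference between groups was itself tested. The day 21 change of the dTAG clones differed from that of the wild-type line in 43 arm bins (limma), and KO clone 3 differed from KO clone 12 in 133. Over the genome, 3.39% of tested bins were higher and 0.0582% lower in the first case, and 8.28% and 0.147% in the second. The pileup of clone 3 was 2.60 and 2.84 and that of clone 12 was 2.04 and 2.46; its part in the difference was not tested.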

How the results depend on the processing

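The scale of coverage decided most counts, and in the values that follow the cause was not tested. Calls over the genome were not counted under these alternatives, so the arm's counts stand without that share. The arm was chosen for few gains, so lower KO and day 21 values after scaling by called length or in equal lists are descriptions. The part of that choice in them was not tested. Scaling by called length gave 236 higher and 554 lower arm bins in KO, 685 lower after 7 days, 761 lower after 14, 584 and 742 after 21, and 86 and 219 for clones minus wild type. It gave 46 and 150 genes in KO and 86 and 282 at day 21. Arm coverage became −2.05 points in KO, −1.94 at day 21, −0.0613 in wild type, −0.189 for day 21 against day 7 and 0.231 for untreated clones against wild type. CSF1 became −0.0929 points, and at day 21 RNF223 −6.38, LDLRAD1 −7.01, KDF1 −2.32 and EPS8L3 −1.98. With pileup as a covariate, 132 bins were lost in KO, 337 higher and 110 lower after 7 days, 267 lower after 14, 565 and 255 after 21, and 84 and 41 for clones minus wild type, with 29 genes lost in KO and 102 and 56 at day 21. Division by pileup took arm coverage to −0.0944, −0.141, −0.180 and 0.428 for day 21, wild type, day 21 against day 7 and untreated clones.

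Lists of equal length left 23 gained and 43 lost bins in KO, 36 higher and 99 lower after 7 days, 57 and 177 after 14, 55 and 171 after 21, 1 lost in wild type and 1 and 4 for clones minus wild type. Genes were 12 and 13 in KO and 21 and 40 at day 21, and arm coverage was −0.346, −0.590, −0.111, −0.0701 and 0.134 in the order above. The KO bin at 19950001 became 0.579, the day 21 bin at 110125001 −1.13, GNL2 0.0936, SRARP −2.48 and LDLRAD1 −2.32. With −log10 q of at least 5, 0 bins were called in KO, at day 14 and for clones minus wild type, 1 higher and 0 lower after 7 days, and 3 and 1 after 21. Genes were 0 in KO and 3 and 1 at day 21, arm coverage was −0.328, −0.0793, −0.0704 and 0.112 without the wild type comparison, PIGV was −0.792 and KDF1 −0.456. Peaks joined over gaps gave 204 and 21 bins in KO, 311 and 0 at day 7, 438 and 4 at day 14, 5 lost at day 21 and 0 for clones minus wild type, 41 and 3 genes in KO, 1 gene lost at day 21, and coverage differences of 2.76 and 4.15. Without a filter, 3 bins were lost at day 7 and 7 and 1 called for clones minus wild type. With only the groups compared, KO had 199 and 11 bins and 21 and 1 genes, clones minus wild type 112 and 4 bins, and day 21 0 lost genes.

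The replicate block gave 8 lost bins at day 7, 28 at day 14, 108 and 13 for clones minus wild type and 5 lost genes at day 21, and all 69 named results kept their call. Leaving out 1 library gave KO bins of 104 to 448 gained and 9 to 41 lost, day 7 bins of 393 to 616 and 1 to 8, day 14 bins of 467 to 878 and 4 to 23, day 21 bins of 653 to 1014 and 2 to 18, wild-type bins of 0 to 2 and 0 to 0, and 0 to 199 and 0 to 4 for clones minus wild type. Genes ranged over 24 to 86 and 4 to 9 in KO and 116 to 185 and 1 to 7 at day 21. Arm coverage ranged over 0.287 to 2.36 in KO, 1.79 to 2.82 at day 21, −0.254 to 2.94 in wild type, −0.301 to 0.730 for day 21 against day 7 and −1.54 to 0.906 for untreated clones. Of 69 named results, 51 kept direction and call when scaled (13 lost the call, 5 reversed), 63 with the pileup covariate, 63 without a filter, 42 with joined gaps and 38 with only the groups compared. With equal list lengths it was 12 of 44 (5 reversed), and with −log10 q of at least 5 it was 1 of 28 (2 reversed). Peak lists hold no reads, so a bin at 0% is one without a called peak at that library's depth.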

Other observations

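Gene clusters of the arm differed in their H3K27me3. Among the 6 secreted phospholipase genes, PLA2G2E averaged 89.2% in the 8 untreated libraries with NSD2 and PLA2G5 13.0%, and none of the 6 was called by limma in KO or at day 21, with 0 at an unadjusted p under 0.05. TNFRSF18, a costimulatory receptor gene of T cells, was at 100% in 7 of these 8 libraries and at 91.9% in the other. All 5 amylase genes were at 0% in all 30 libraries, and 16 of 18 PRAME family promoter windows were inside no peak; both families hold near-identical copies, so their values are uncertain. Of 5 glutathione transferase GSTM genes, 4 were tested, 1 gained in KO (GSTM4) and 3 at day 21, beside 18.0% and 26.5% of all tested genes. C1QC, a complement gene, averaged 23.7% in the KO parental line and 55.5% in the KO clones, with an adjusted p of 0.107 (limma).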
